A study of Mus musculus with 2 samples.

Results

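The integrated stress response was followed here through 10 genes of 35522 listed in the expression tables of mouse neutrophils: the kinase genes Eif2ak1, Eif2ak3 and Eif2ak4, the transcription factor genes Atf4, Atf3, Ddit3 and Xbp1, and the target genes Trib3, Asns and Ppp1r15a. They were chosen by symbol, and each was found in both tables. The neutrophils were CD11b positive, high in Ly-6G and low or negative in Ly-6C, and had been sorted from the bone marrow of tumor-free Balb/C mice that carried no engineered allele named in the labels. All cells were grown in RPMI-1640 with 10 ng/ml GM-CSF, a myeloid growth factor, so the control cells carried this stimulus too. The treatment was PBS in one culture and 20 μg/ml of tumor exosomes (labelled ELV) in the other, and both lasted 3 days. The exosomes were membrane vesicles that cancer stem cells, enriched from the murine colon carcinoma line CT26 in stem cell medium, had shed into that medium. Each treatment holds 1 library. No value has a spread between replicates, no test between the treatments can be made, and all differences below compare 2 libraries.

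In the integrated stress response, 4 kinases sense different stresses and phosphorylate the translation initiation factor eIF2. General protein synthesis then slows, while mRNAs such as Atf4 are translated better, and ATF4 switches on genes for amino acid supply, for CHOP (encoded by Ddit3) and for the return to normal synthesis. A prolonged response is known for promoting cell death through CHOP. XBP1 belongs to a parallel branch, the unfolded protein response of the endoplasmic reticulum (ER), in which the enzyme IRE1 splices its mRNA. The RNA level of a gene shows neither the phosphorylation of eIF2, nor the translation of Atf4, nor the spliced form of Xbp1.

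Expression was given as RPKM, reads scaled by the kilobases of a gene's exon model and by the mega (M) of mapped reads. The smallest values were taken to stand for single reads, from which 65.96 M mapped reads were estimated for PBS and 79.13 M for the exosome library. These are the commonest totals: 222 of 918 values below 0.01 gave that of PBS, and 262 of 1064 that of the exosome library. A gene was kept at an RPKM of at least 0.25 in both libraries and counted as up or down when its RPKM differed at least 2-fold. Of 9698 features kept, 31.5% were up and 5.62% were down. The median log2 fold change over them was 0.53, but it depended on the level. It was 0.48 at a mean RPKM from 0.25 to 1, 1 from 1 to 5 (50.2% up), 0.67 from 5 to 10, 0.31 from 10 to 50 and 0.038 at 50 or more (12.5% up and 11.4% down). Each gene is therefore best read against features of its own level, and Atf4 and Ddit3 lay in the range of 50 RPKM or more, Eif2ak1, Eif2ak3, Atf3, Xbp1 and Ppp1r15a in that from 10 to 50, Asns from 5 to 10, Trib3 from 1 to 5 and Eif2ak4 from 0.25 to 1. Removing that median turned the 3056 features up and 545 down into 1634 and 1282. Intervals below are 95% intervals of counting error alone.

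The 10 genes parted in both directions. All 10 were kept; Asns was up (10% of the genes, against 31.5% of all features), Ddit3, Eif2ak3 and Atf3 were down (30%, against 5.62%), and 6 stayed within 2-fold. Most of the 10 lay at a mean RPKM of 10 or more, where fewer features were up. From 10 to 50, 18.4% of features were up and 5.15% down, and at 50 or more 12.5% and 11.4%. The median log2 fold change of the 10 was -0.04, beside 0.53 over all features, 0.31 from 10 to 50 and 0.038 at 50 or more. It was 0.0088 after rescaling to TPM. The single gene up and the 3 genes down kept these calls under every pseudocount and every rescaling tried, and they lay 13.1-fold apart in their ratios from Ddit3 to Asns. In a bulk library, fewer cells of a type and less RNA per cell cannot be told apart.

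**Figure D1:**
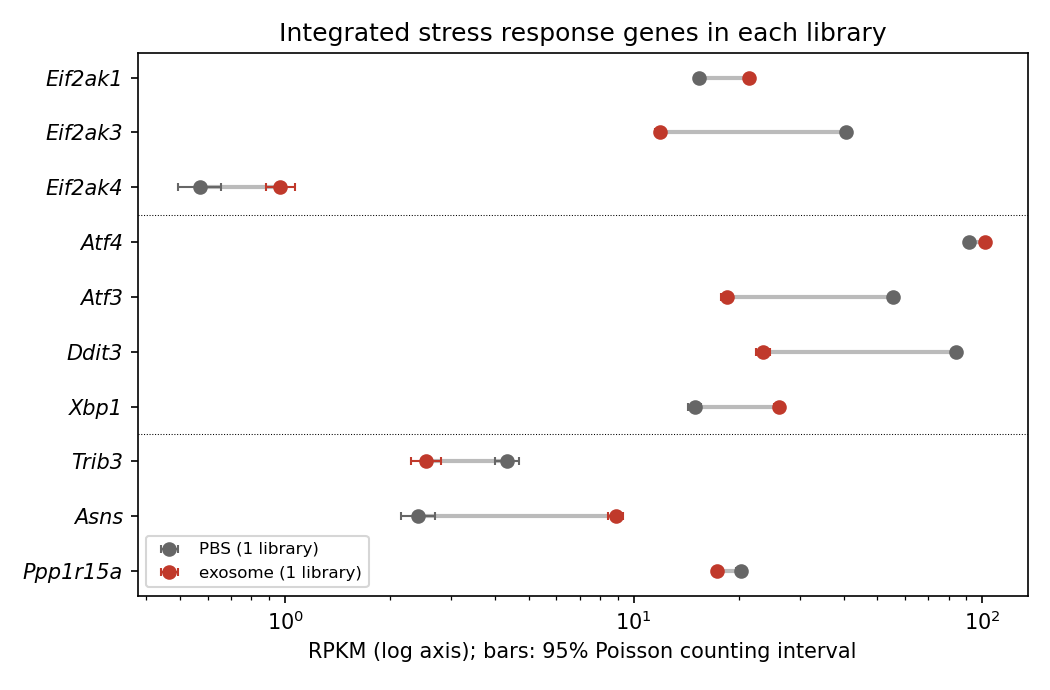
RPKM of each of the 10 genes in the PBS library (grey) and the exosome library (red), on a log axis; dotted lines separate kinases, transcription factors and targets, and bars are 95% Poisson counting intervals. Ddit3, Atf3 and Eif2ak3 lay far lower in the exosome library, Asns lay higher, and Atf4 stood near 100 RPKM in both (91.51 and 101.54).

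Promoter letters were examined because genes that ATF4 is known to regulate went opposite ways. All 10 genes matched the RefSeq promoter table (GRCm38.p6), which gives 250 bases before and 50 after each start. The core of the C/EBP-ATF response element, TGATGNAA, was searched on both strands, and 3 of the 10 genes held it: Atf3, Asns and Trib3. It occurs in 3.97% of all 32851 promoter entries. The full cAMP response element, TGACGTCA, was found in Ppp1r15a alone among the 10 and in 1.79% of all entries. The sequences are shown 5′ to 3′ on the strand of the gene, with the matched letters in capitals, and in Atf3 and Trib3 the match reads on the opposite strand.
Atf3, chr1:191183341-191183483, minus strand: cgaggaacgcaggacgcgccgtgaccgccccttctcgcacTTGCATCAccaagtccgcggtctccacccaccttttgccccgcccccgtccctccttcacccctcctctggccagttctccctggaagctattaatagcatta
Asns, chr6:7693214-7693243, minus strand: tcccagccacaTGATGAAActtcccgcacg
Trib3, chr2:152344028-152344057, minus strand: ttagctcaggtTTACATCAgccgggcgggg
Ppp1r15a, chr7:45526269-45526329, minus strand: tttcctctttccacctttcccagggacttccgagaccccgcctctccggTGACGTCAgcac
The Atf3 window lies inside an intron of longer Atf3 transcripts and just before the start of a shorter one. The Asns site lies before the RefSeq start and inside the first exon of the GENCODE M21 model, and the matched letters of the Trib3 site lie after the RefSeq start and before the start of the GENCODE M21 model. The genes with the ATF4 element in the searched bases thus included the one gene that was up, Asns, one of the 3 that were down, Atf3, and Trib3, which stayed within 2-fold. Sites farther from the start were not searched for, so the other genes, Ddit3 among them, cannot be said to lack the element. A match of letters is a description and does not show that a factor binds there.

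Among the 3 kinase genes of the set, only Eif2ak3 passed the 2-fold limit. Eif2ak3 (chromosome 6, 70844515 to 70905245, plus strand) encodes PERK, the kinase of the ER membrane that responds to unfolded proteins. It stood at 40.57 RPKM in PBS and 11.88 RPKM in the exosome library, a 3.41-fold lower level and a log2 fold change of -1.77 (interval -1.82 to -1.72). Only 1.73% of all features kept, and 1.41% of those at its level, had a lower log2 fold change. Eif2ak1 (chromosome 5, 143817788 to 143904251, plus strand) encodes HRI, the kinase that senses heme shortage in erythroid cells and mitochondrial stress elsewhere. Its RPKM was 15.43 in PBS and 21.47 with exosomes, a log2 fold change of 0.48 (0.42 to 0.53) that is close to the median of all features (0.31 at its own level) and turned to -0.050 when that median was removed. Part of Eif2ak1 overlaps Aimp2 on the opposite strand, which had 2.99 and 6.21 RPKM. Strand was not stated for the counting, so any reads from the overlap cannot be assigned to 1 of them. Eif2ak4 (chromosome 2, 118388618 to 118475234, plus strand) encodes GCN2, which senses uncharged tRNA, and was the lowest of the 10 genes in both libraries. It had 0.57 RPKM in PBS and 0.97 RPKM with exosomes, which correspond to about 199 and 407 reads. The log2 fold change was 0.77 (0.52 to 1.02), and this interval includes the 2-fold limit.

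The leading kinase transcript differed between the libraries. With Eif2ak2, which encodes the fourth kinase, PKR, and senses double-stranded RNA, the RPKM of the 4 kinase genes summed to 58.28 in PBS and 42.1 with exosomes. Eif2ak3 held 69.6% of the sum in PBS and 28.2% in the exosome library. Eif2ak1 held 26.5% and then 51.0%, which made it the leading kinase transcript after exosomes. The share of Eif2ak2 was 2.93% in PBS and 18.5% with exosomes, at 1.71 and 7.78 RPKM. Eif2ak4 held 0.978% and 2.30%. The ratio of Eif2ak3 to Eif2ak1 went from 2.63 to 0.553, a 4.75-fold difference that no scaling between the libraries can change.

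Among the transcription factors, Atf4 stayed level while Ddit3 and Atf3 were much lower. Atf4 (chromosome 15, 80255184 to 80257541, plus strand), the central factor of the response, led the 10 genes in both libraries. Its RPKM was 91.51 in PBS and 101.54 with exosomes. The log2 fold change of 0.15 (0.12 to 0.18) was far inside the 2-fold limit, and its sign was not fixed, since it became -0.38 with the median removed and -0.023 with S100a8 and S100a9 left out of the totals. Ddit3 (chromosome 10, 127290774 to 127296288, plus strand) encodes CHOP, a partner of C/EBP factors that promotes cell death under lasting stress. It stood at 83.99 RPKM in PBS and 23.52 RPKM with exosomes, 3.57-fold lower. The log2 fold change was -1.84 (-1.91 to -1.76), the lowest of the 10, and 1.54% of all features and 2.27% of those at its level lay below it. Ddit3 and Mars overlap by 68 bases on opposite strands, and Mars went the other way, with 8.23 RPKM in PBS and 13.98 RPKM with exosomes.

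Atf3 (chromosome 1, 191170296 to 191218039, minus strand) encodes a stress-induced factor that represses many inflammatory genes. It had 55.56 RPKM in PBS and 18.51 RPKM with exosomes, 3.00-fold lower, at a log2 fold change of -1.59 (-1.65 to -1.52), with 1.77% of the features at its level below it. The log2 fold changes of Ddit3, Eif2ak3 and Atf3 thus lay between -1.84 and -1.59. Xbp1 (chromosome 11, 5520659 to 5525893, plus strand), a factor needed for secretory capacity and for plasma cells and eosinophils, moved the other way. It had 14.98 RPKM in PBS and 26.04 RPKM with exosomes. Its log2 fold change of 0.80 (0.72 to 0.87) did not reach 2-fold, and it was 0.27 with the median removed. Xbp1 was seventh of the 10 genes in PBS, where its interval overlapped that of Eif2ak1, and stood next to Atf4 in the exosome library.

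**Figure D2:**
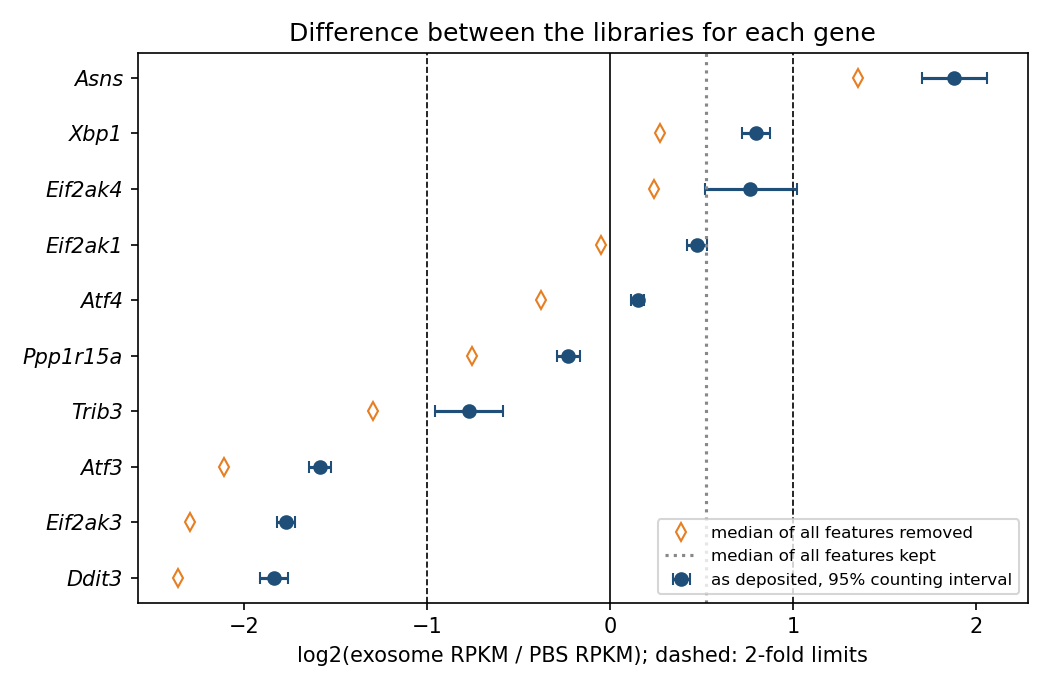
Log2 of exosome over PBS RPKM for each gene (circles, bars: 95% counting interval), and the same value after the median of all features was removed (open diamonds). Dashed lines mark 2-fold and the dotted line the median of all features (0.53); Ddit3, Eif2ak3 and Atf3 lay beyond 2-fold either way, Trib3 passed it only with the median removed, Atf4 and Eif2ak1 changed sign, and Asns stayed above it.

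The target genes also differed in direction. Asns (chromosome 6, 7675169 to 7693254, minus strand) encodes asparagine synthetase and is a standard target of ATF4 when amino acids are short. Its RPKM was 2.41 in PBS and 8.87 with exosomes, 3.68-fold higher. The log2 fold change was 1.88 (1.71 to 2.06), from about 320 and 1415 reads, and 89.5% of all features and 90.7% of those at its level lay below it. Trib3 (chromosome 2, 152337422 to 152344032, minus strand) encodes a pseudokinase that ATF4 and CHOP induce and that restrains AKT. It had 4.33 RPKM in PBS and 2.54 RPKM with exosomes, a log2 fold change of -0.77 (-0.96 to -0.59), with 6.37% of the features at its level below it. Trib3 stayed inside the 2-fold limit as deposited and passed it at -1.30 with the median removed. Ppp1r15a (chromosome 7, 45522916 to 45526268, minus strand) encodes GADD34, which brings a phosphatase to eIF2 and ends the response. It stood at 20.34 RPKM in PBS and 17.37 RPKM with exosomes, a log2 fold change of -0.23 (-0.29 to -0.16), with 19.6% of all features below it.

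The ratio of a gene to Atf4 within the same library does not depend on the scaling between libraries. Ddit3 reached 0.918 of the Atf4 level in PBS and 0.232 in the exosome library, 3.96-fold less. Atf3 went from 0.607 to 0.182 and Trib3 from 0.0473 to 0.0250. The ratio of Asns to Atf4 went up, from 0.0263 to 0.0874, 3.32-fold more, and that of Xbp1 from 0.164 to 0.256. Ppp1r15a moved least, from 0.222 to 0.171. Asns and Ddit3, both known as ATF4 targets, thus stood 34.9-fold apart in PBS and 2.65-fold apart with exosomes.

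**Figure D3:**
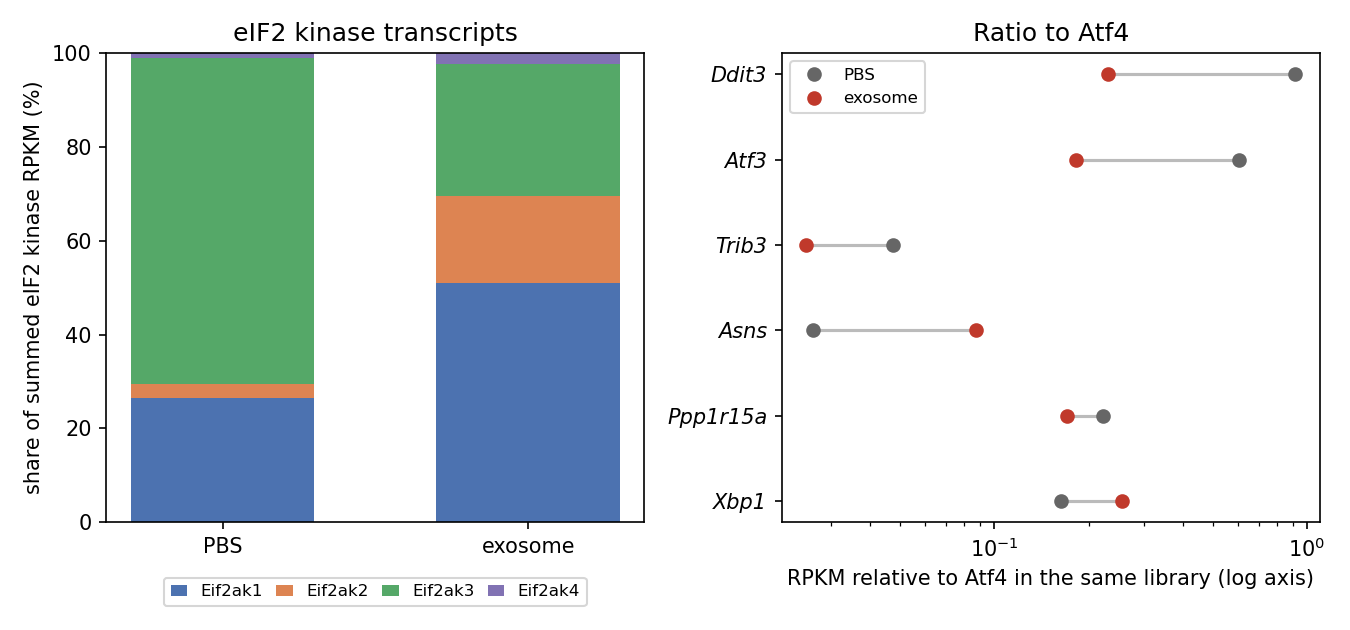
Left, the share of each of the 4 eIF2 kinase genes in their summed RPKM (percent) in the PBS and the exosome library; right, the RPKM of 6 genes relative to Atf4 in the same library, on a log axis. Eif2ak3 held 69.6% of the kinase sum in PBS and 28.2% with exosomes, and Ddit3 and Atf3 lay lower relative to Atf4 while Asns lay higher.

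By level, Atf4 came first and Eif2ak4 last in both libraries. In PBS the order was Atf4, Ddit3, Atf3, Eif2ak3, Ppp1r15a, Eif2ak1, Xbp1, Trib3, Asns and Eif2ak4. Only the intervals of Eif2ak1 (14.98 to 15.89 RPKM) and Xbp1 (14.35 to 15.64 RPKM) overlapped between neighbours. With exosomes the order was Atf4, Xbp1, Ddit3, Eif2ak1, Atf3, Ppp1r15a, Eif2ak3, Asns, Trib3 and Eif2ak4. There only Atf3 (17.84 to 19.20 RPKM) and Ppp1r15a (16.83 to 17.93 RPKM) overlapped. Asns and Trib3 exchanged places.

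The rest of the pathway was read from 6 lists that hold 138 different genes, some of them in more than 1 list. Of 121 kept, 39 (32.2%) were up and 7 (5.79%) were down, which is near the 31.5% and 5.62% of all features, and their median log2 fold change was 0.67 beside 0.53. These counts depended on the scaling, so those with the median of all features removed are given beside each list.

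Genes of eIF2, its exchange factor eIF2B and its phosphatase included 5 up (38.5%, beside 31.5% of all features) and 0 down of 13 kept (median 0.76). With the median removed, 2 were up and the list median was 0.23. Eif2s1, which encodes the phosphorylated eIF2α subunit, had 2.23 RPKM in PBS and 10.85 RPKM with exosomes (log2 fold change 2.28). Eif2ak2 followed at 2.19, and Eif2b1, an eIF2B subunit, had 1.92 and 5.18 RPKM (1.43). At the other end were Ppp1ca and Ppp1cc, both at 0.15, which encode catalytic subunits of the phosphatase, and Nck1 at -0.05. Ppp1r15b, the constitutive relative of Ppp1r15a, had 38.71 and 43.59 RPKM (0.17), above Ppp1r15a in both libraries.

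Of 8 regulators of the kinases, 4 were up (50%, beside 31.5% of all features) and 1 was down (12.5%, beside 5.62%). The list median was 0.89. Only 1 was up with the median or trimmed mean removed, with a pseudocount of 1 and with S100a8 and S100a9 left out, and the list median was 0.36 with the median removed. Tarbp2 (1.67) and Prkra (1.10) encode an inhibitor and an activator of PKR, and Dnajc3 (1.14) an ER protein that inhibits PERK. Both Tarbp2 and Prkra lay at a mean RPKM from 1 to 5, where 50.2% of all features were up. Of the features at that level, 73.2% had a lower log2 fold change than Tarbp2 and 54.0% a lower one than Prkra. Impact, which encodes an inhibitor of GCN2 activation, was the one down, with 21.16 RPKM in PBS and 8.17 RPKM with exosomes (-1.37). Hspa5, the ER chaperone BiP that holds PERK inactive, had 64.36 and 69.13 RPKM (0.10), and Gcn1l1, the partner of GCN2, had a log2 fold change of 0.20.

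Of 18 other ATF4 and CHOP targets kept, 3 were up and 3 were down (16.7% each). Most of these genes lay at a mean RPKM of 10 or more, where fewer features were up. From 10 to 50, 18.4% of features were up and 5.15% down, at a median of 0.31. At 50 or more, 12.5% were up and 11.4% down, at a median of 0.038. The shares of all features were 31.5% up and 5.62% down, and the list median of -0.0040 was below that of all features. With the median removed 1 was up and 5 were down, and with the trimmed mean removed 1 and 7. Those down were Chac1, a glutathione-degrading enzyme, from 0.96 to 0.29 RPKM (-1.73), Trp53inp1, a stress protein induced by p53, from 132.92 to 52.3 RPKM (-1.35), and Sesn2, an inhibitor of mTORC1, from 40.94 to 17.2 RPKM (-1.25). Those up were Nupr1, a stress-induced chromatin protein, from 0.48 to 5.95 RPKM (3.63), Ero1l, an ER oxidase, from 32.91 to 84.59 RPKM (1.36), and Gdf15, a stress cytokine, from 3.72 to 7.46 RPKM, a ratio of 2.01.

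Amino acid supply genes, where Asns belongs by function, included 12 up of 28 kept (42.9%, beside 31.5% of all features). There was 1 down (3.57%, beside 5.62%), and the list median was 0.79. Many of these genes lay at a mean RPKM from 1 to 5, where 50.2% of all features were up and their median was 1. With the median removed 6 were up and 3 down at a list median of 0.26, and 7 were up with a pseudocount of 1. Eprs, a tRNA synthetase, had 1.62 and 7.9 RPKM (2.29), Slc7a1, a cationic amino acid transporter, 0.67 and 2.74 RPKM (2.03), and Mthfd1l, a mitochondrial folate enzyme, 0.36 and 1.31 RPKM (1.86). The one down was Slc38a2, a transporter of neutral amino acids, with 95.38 and 46.64 RPKM (-1.03). The cystine transporter gene Slc7a11 had 136.22 and 77.12 RPKM (-0.82), and Aldh18a1, of proline synthesis, had -0.56.

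In the IRE1, ATF6 and ER chaperone list, which holds the surroundings of Xbp1, 15 of 39 kept were up (38.5%, beside 31.5%) and 0 were down (median 0.80). Only 4 were up with the median or trimmed mean removed, 7 with S100a8 and S100a9 left out and 9 with a pseudocount of 1, and with the median removed the list median was 0.27. All 39 had a log2 fold change above 0 as deposited, which does not hold once the median is removed. Mbtps2 (2.95), a protease that releases ATF6, Sdf2l1 (2.09), an ER chaperone cofactor, and P4hb (2.03), a protein disulfide isomerase, were highest, the last with 33.02 and 135.2 RPKM. Ern1, which encodes IRE1, had 4.31 and 6.93 RPKM (0.69). The lowest were Syvn1 (0.10), Hspa5 (0.10) and Edem1 (0.14), all of ER folding and degradation.

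AP-1, C/EBP and other ATF genes, among them possible dimer partners of ATF4, ATF3 and CHOP, stayed mostly within 2-fold. Of 27 kept, 3 were up (11.1%, beside 31.5% of all features) and 2 were down (7.41%, beside 5.62%). Most of them lay at a mean RPKM of 10 or more. There 18.4% of features were up and 5.15% down from 10 to 50, and 12.5% and 11.4% at 50 or more. The list median was 0.12, and -0.41 with 2 up and 6 down once the median of all features was removed. Batf had 9.61 and 33.06 RPKM (1.78), Nfe2l1 17.14 and 49.91 RPKM (1.54) and Atf6b 15.98 and 33.51 RPKM (1.07). Jun (-1.10) and Fos (-1.01), the classical AP-1 pair, were down, and Cebpe, a factor of granulocyte maturation, had 10.86 and 5.44 RPKM, just inside the limit. Cebpb had 227.42 and 418.72 RPKM (0.88).

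**Figure D4:**
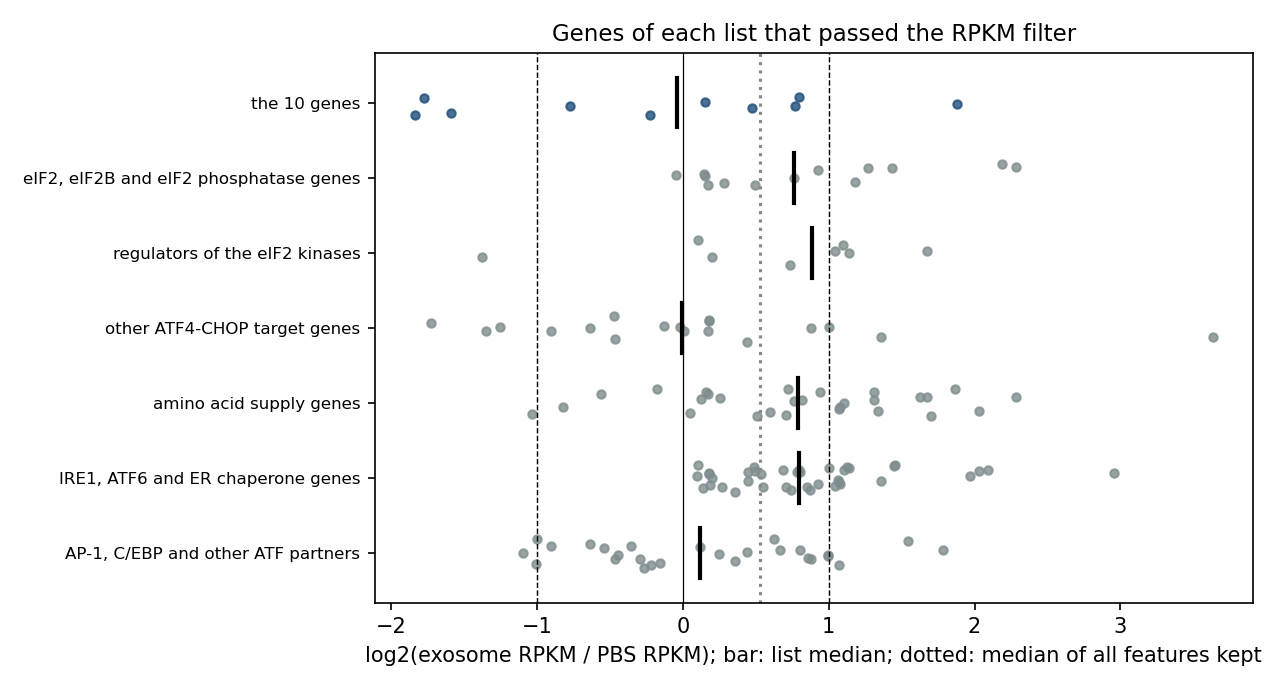
Log2 of exosome over PBS RPKM for the 10 genes (blue) and for each kept gene of the 6 lists (grey); black bars are medians, dashed lines 2-fold, and the dotted line the median of all features (0.53). The 10 genes had a median of -0.04, near that of the other ATF4 and CHOP targets, while the ER chaperone and amino acid supply lists had medians of 0.80 and 0.79 as deposited (0.27 and 0.26 with the median removed).

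Markers of cell type also differed between the libraries. Of 15 neutrophil markers kept, 11 were down (73.3%) and 0 were up. Of all features 5.62% were down and 31.5% up, and 11.4% were down at a mean of 50 RPKM or more. The summed RPKM of the neutrophil markers was 85030 in PBS and 30895 with exosomes, with S100a9 highest in PBS at 43059 RPKM (13834 with exosomes). All 15 neutrophil markers were present in both libraries, and Ly6g, the gene of the sorting marker (named after its values were seen), had 286.96 and 56.19 RPKM. Of 15 monocyte and macrophage markers, 9 were kept, of which 6 were up (66.7%) and 1 (11.1%), Ly6c2, was down, from 184.41 to 37.12 RPKM. That list summed to 378.7 RPKM in PBS and 686.2 RPKM with exosomes and had none at 0. The part of either list in the levels of the 10 genes was not tested. Erythroid markers, which matter for Eif2ak1, summed to 1.74 RPKM in PBS and 0.205 RPKM with exosomes, none of 7 was kept, and Hba-a1 was highest in PBS at 1.19 RPKM (0.02 with exosomes). B and plasma cell markers, which matter for Xbp1, summed to 115.3 and 72.7 RPKM. Of 8 kept, 1 was up (12.5%) and 0 were down, and Cd79a was highest at 38.25 and 24.44 RPKM. Eosinophil markers summed to 10.64 and 5.29 RPKM (Prg2 highest, at 5.32 and 2.93). Mast cell and basophil markers summed to 2.02 and 2.18 RPKM (Mcpt8 highest, 1.01 and 0.86). Megakaryocyte markers summed to 35.83 and 32.11 RPKM (Pf4 highest, 19.1 and 23.32). Of the 5 megakaryocyte markers, all kept, only Pf4 was higher with exosomes. Gp1bb, from 2.01 to 0.48 RPKM, was the 1 down (20%, beside 5.62% of all features). Dendritic cell markers summed to 115.7 and 75.75 RPKM (Cd74, 81.36 and 54.09) and T and NK cell markers to 58 and 7.97 RPKM, nearly all of it Cd3d at 56.44 and 7.02. Epithelial and carcinoma markers summed to 0.590 and 0.205 RPKM, with Krt18 highest in PBS at 0.38 RPKM (0.08 with exosomes), and 3 of 6 were at 0 in PBS and 2 of 6 with exosomes.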

How the data were processed

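Total RNA was extracted with Trizol and TruSeq mRNA libraries were made, 1 from PBS-treated and 1 from exosome-treated neutrophils. The authors trimmed the reads by quality, ran CLC Genomics Workbench, and deposited expression as RPKM, 1 value per feature and library. The submitters' processing notes name mm10. The annotation, the strand setting and how multi-mapping reads were counted are not given in the sources used here. RPKM above 0.01 is rounded to 0.01.

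Fold changes are log2 of exosome over PBS RPKM without a pseudocount. The depths of 65.96 M and 79.13 M reads (M, mega) came from RPKM below 0.01 and the longest transcript of each symbol in GENCODE M21 (GRCm38), which need not be the authors' exon model, so intervals are approximate. The exosome library was 1.20 times deeper, the ratio also found without lengths. Reads estimated from these depths gave exact Clopper-Pearson intervals of ratios and Poisson intervals of levels (95%, counting error only, SciPy 1.17.1). Calls used an RPKM of at least 0.25 and a 2-fold ratio, the limits of the study. No test was run, since each group holds 1 library. The procedure was tested on simulated data built from the same transcript lengths and counting error, so this cannot check the exon model. All 10 genes and all genes that met the rule below are named: from each list the 3 highest and 3 lowest log2 fold changes and partners of the 10 genes, and from each marker list the gene with the highest RPKM. Overlapping genes were named because they may share reads, which was not checked. No genes were ranked by likeness of pattern, since 2 libraries give none. The members, lists, motifs and alternatives were chosen with earlier results of these data known.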

Additional observations from a re-analysis of the deposited data

How the results depend on the processing

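No paired analysis was possible because each group holds 1 library. The calls of the 10 genes, 1 up and 3 down, were the same with an RPKM of at least 1, with no filter, with pseudocounts of 0.25 and 1, after rescaling to TPM and with S100a8 and S100a9 left out. With the median or a trimmed mean of log ratios removed, Trib3 joined those down, which made 4. At a limit of 1.5-fold 3 were up and 4 down, and at 4-fold 0 and 0. Merging all exons of a gene, in place of the longest transcript, moved none of the values and narrowed every counting interval of the 10 genes. This had to follow, because a longer gene at the same RPKM and depth gives more estimated reads. The upper bound of Eif2ak4 became 0.98, inside the 2-fold limit, so that bound depended on the length used.

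Over the 10 genes, the median log2 difference became -0.23 with an RPKM of at least 1, which drops Eif2ak4, -0.57 with the median removed, -0.58 with the trimmed mean removed, 0.0088 after rescaling to TPM and -0.21 with S100a8 and S100a9 left out. Atf4 turned to -0.38, -0.39 and -0.023 with the median removed, the trimmed mean removed and S100a8 and S100a9 left out, and Eif2ak1 to -0.050 and -0.065 under the median and the trimmed mean. These shifts follow from the amount each setting removes, which was 0.53 for the median, 0.54 for the trimmed mean, -0.048 for TPM and 0.17 for the S100 setting. The trimmed mean left the median of all features at -0.015.

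Of the genes in the 6 lists, 25 were up with a pseudocount of 1 and with S100a8 and S100a9 left out, 16 were up with the median or trimmed mean removed, and 63 and 8 were up at limits of 1.5-fold and 4-fold. Down were 13 with the median removed, 15 with the trimmed mean removed, and 11 and 0 at limits of 1.5-fold and 4-fold. The median of the ATF4 and CHOP targets became 0.0099 without a filter and 0.044 after rescaling to TPM. That of the ATF partners became -0.019 with an RPKM of at least 1, -0.41 and -0.43 with the median and trimmed mean removed, and -0.058 with S100a8 and S100a9 left out.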
